A study of Sus scrofa with 16 samples.

Results

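The genes described here encode the signalling chains of the T cell receptor (CD3D, CD3E, CD3G and CD247), the kinase that binds them (ZAP70), the coreceptors CD4, CD8A and CD8B, and the T cell surface proteins CD2 and CD5. These 10 genes were chosen by their measured values in the same arrays, in which their colonic and hepatic diet differences had seemed to point in opposite directions, so every diet value given for them is a description without a test. Probes were taken where the array's own gene name or description carried the symbol. Of the 10 genes, 9 had at least 1 probe, together 18 of the 43603 probes measured, and ZAP70 had none.

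A T cell recognizes antigen through a receptor of paired variable chains that cannot signal alone. The CD3 gamma, delta and epsilon chains and the zeta chain, encoded by CD247, carry the signal inward, and CD4 or CD8 binds the MHC molecule and brings the kinase LCK to the complex. Pigs carry many gamma delta T cells, a large part of which lack CD2, and in pigs the CD8 alpha chain is also found on natural killer cells and on activated CD4 T cells.

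Duroc × Landrace × Large White barrows ate, from 70 days of age and for 100 days, a diet with purified corn starch (CS) or the same diet with raw potato starch (RPS) in its place, at 230 g/kg in the growing period and 280 g/kg in the finishing period. Mucosa scraped from the proximal colon and liver tissue were taken at 170 days of age from 1 pig per pen, and 4 pigs per diet were put on arrays without pooling. The 16 one-colour Agilent arrays form 4 groups of 4, colon CS, colon RPS, liver CS and liver RPS. The groups share breed, sex, age and basal diet, and differ in tissue and starch only, but each group also had a slide of its own, so slide and group cannot be told apart.

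Values are log2 fluorescence signals after background subtraction, brought to a common distribution over the 8 arrays of a tissue. Levels of different probes cannot be compared with each other, because probes bind with different strength. Replicate numbers 1 to 4 name the arrays of a group and carry no order.

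The tissue labels held up against the marker genes. All 11 measured genes of colonic epithelium were higher in colon than in liver, and all 14 measured hepatocyte genes were lower in colon. CYP2E1, FGG, TTR and FGA were well above background on 0 of the 8 colonic arrays.

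In the colon, 3 arrays stood apart in the genes of immune cells or epithelium. CS replicate 3 and RPS replicate 2 were bright for B cell and lymphoid genes. MS4A1, a B cell surface protein, had log2 signals of 7.68, 10.37, 12.72 and 10.33 on CS replicates 1 to 4 and of 6.50, 12.57, 8.26 and 7.37 on RPS replicates 1 to 4. LTB, a cytokine needed for lymphoid follicles, had 10.92, 12.63, 15.07 and 12.77 with CS and 10.83, 15.12, 11.21 and 11.21 with RPS. The same 2 arrays were the dimmest for the epithelial protein EPCAM, at 13.94 and 14.58, where the other 6 colonic arrays lay between 15.54 and 16.21. RPS replicate 4 was the third such array. It had the smallest share of probes well above background in the colon (64.9%), the most spots that the scanner software had marked as outliers (27), the highest signal of LYZ (17.44) and the lowest of the complement genes C1QA, C1QB and C1QC. The raw median signal also moved with diet in the colon, from 56.3 to 70.8 on the CS arrays against 34.2 to 42.5 on the RPS arrays. What these differences contributed to the values below was not tested. Counts and medians of the T cell probes are therefore given with and without the arrays concerned.

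**Figure D1:**
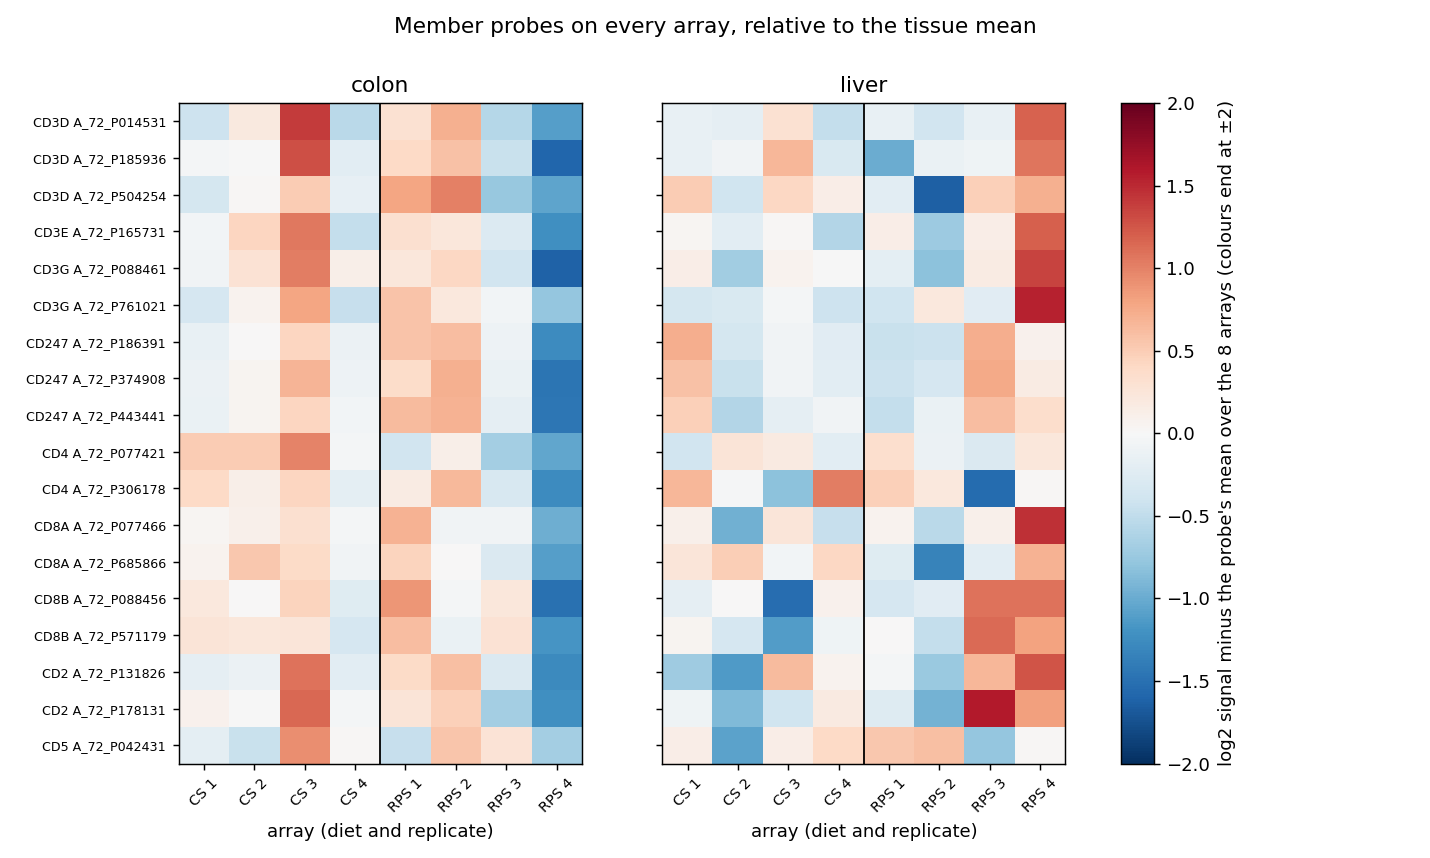
Log2 signal of each of the 18 probes on each array, relative to the mean of that probe over the 8 arrays of the tissue (colour scale, ending at ±2), with colon at left, liver at right and a line between the diets. Colon RPS replicate 4 was the lowest array for all 18 probes, and liver RPS replicate 4 the highest for 10, although some liver probes were not well above background.

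The first comparison asked how the T cell genes stood in the colonic mucosa of pigs given raw potato starch against corn starch. All 18 probes had a lower mean with RPS, where 47.7% of all probes had one, but the reduction was small, with a median log2 difference of -0.28 over the 18 probes against 0.01 over all probes. The members were chosen on this contrast, so nothing is read from that count. In 5 of the 18 probes the difference exceeded its own standard error (SE). RPS replicate 4 was the lowest of the 8 arrays for each of the 18 probes, and without it 8 of the 18 means were lower with RPS and the median was 0.06. CS replicate 3 was the highest array of its group for 16 probes. Without it, 12 means were lower and the median was -0.12, and without both arrays 3 means were lower and the median was 0.30. Leaving out RPS replicate 2, the other array bright for B cell genes, went the other way, with 18 means lower and a median of -0.54, and without CS replicate 3 and RPS replicate 2 together 17 were lower and the median was -0.26. The direction held for all 18 probes when arrays were scaled to the 75th percentile, and for 16 of 18 after normexp background correction, which halved the median to -0.14. In bulk tissue, fewer T cells and less RNA per T cell cannot be told apart.

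Among the CD3 chains, CD3D at its brightest probe (A_72_P014531) had log2 signals of 10.56, 11.17, 12.38 and 10.45 on the CS arrays and of 11.29, 11.70, 10.41 and 9.88 on the RPS arrays. CS replicate 3 was the highest and RPS replicate 4 the lowest, the other arrays of both diets were interleaved, and the mean difference was -0.32 (SE 0.55, 4 arrays per group), -0.01 without RPS replicate 4 and 0.09 without CS replicate 3. CD3E, which pairs with either of the other CD3 chains, had 9.53, 10.01, 10.64 and 9.11 with CS and 9.90, 9.81, 9.32 and 8.37 with RPS. The groups overlapped over most of their range, with CS replicate 4 below 3 of the RPS arrays, and the difference of -0.48 (SE 0.44) was -0.15 without RPS replicate 4.

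CD3G had the largest colonic difference of the CD3 chains at probe A_72_P088461, with 9.84, 10.20, 10.93 and 10.03 on the CS arrays and 10.14, 10.33, 9.53 and 8.30 on the RPS arrays. RPS replicates 1 and 2 lay among the CS arrays, RPS replicate 3 lay just under them and RPS replicate 4 far below, so that the difference of -0.68 (SE 0.47) became -0.25 without that array. The dimmer CD3G probe (A_72_P761021) differed by -0.03 (SE 0.37).

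The zeta chain gene CD247 split the RPS group. Its probe A_72_P443441 read 13.05, 13.25, 13.62 and 13.13 with CS and 13.82, 13.88, 13.01 and 11.74 with RPS. RPS replicates 1 and 2 were above every CS array and RPS replicates 3 and 4 below every CS array. The mean difference of -0.15 (SE 0.47) therefore turned to 0.30 without RPS replicate 4, and the other CD247 probes also turned, from -0.26 to 0.18 and from -0.08 to 0.33.

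CD4, the coreceptor of helper T cells, showed the largest difference of the family with the main processing. Its probe A_72_P077421 had 6.51, 6.50, 6.98 and 5.95 on the CS arrays and 5.61, 6.11, 5.32 and 4.96 on the RPS arrays. Only RPS replicate 2 reached into the range of the CS group, above CS replicate 4. This was the 1 probe of the 18 past both thresholds used for the diet (an unadjusted p under 0.05 in limma and a change above 1.5-fold). Among all probes 1.32% passed as lower. As higher 0 of the 18 passed, where 1.62% of all probes did. The genes were chosen on this contrast, so passing the thresholds is a description of CD4 and not a test. With 0 of the 18 probes did all RPS arrays lie below all CS arrays, which was so for 1.42% of all probes. The mean difference of -0.99 (SE 0.30) ranged from -1.19 without RPS replicate 2 to -0.81 without RPS replicate 4, and was -0.64, no longer past both thresholds, without both CS replicate 3 and RPS replicate 4. With normexp background correction it was -0.50, which is under the 1.5-fold threshold, and another member probe had the largest difference (-0.66).

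The second CD4 probe (A_72_P306178) read 5.22, 4.94, 5.26 and 4.64 with CS and 4.99, 5.48, 4.50 and 3.57 with RPS. Here RPS replicate 2 was the highest array and RPS replicate 4 the lowest, and without the latter, on which the probe was not well above background, the 2 diets had nearly the same mean (difference -0.03). The pair of CD4 probes thus shared the low RPS replicate 4 but differed in how far the other RPS arrays lay from the CS arrays.

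CD8A encodes the CD8 alpha chain. Its brighter probe (A_72_P077466) had 9.98, 10.04, 10.26 and 9.90 on the CS arrays and 10.63, 9.86, 9.87 and 8.95 on the RPS arrays. The CS arrays were tightly grouped, with RPS replicate 1 above them, RPS replicates 2 and 3 just under them and RPS replicate 4 far below. CD8B, the beta chain that marks conventional cytotoxic T cells, had 6.22, 6.18, 6.19 and 5.62 with CS and 6.57, 5.81, 6.25 and 4.78 with RPS at its probe A_72_P571179. Again RPS replicate 1 was the highest and RPS replicate 4 the lowest array. The difference was -0.22 (SE 0.33) for CD8A and -0.20 (SE 0.39) for CD8B, and both were above 0 without RPS replicate 4 (0.08 and 0.16). The other CD8A probe (A_72_P685866) differed by -0.47 (SE 0.33) and kept -0.18 without that array, and the other CD8B probe (A_72_P088456) differed by -0.21 (SE 0.48).

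CD2, an adhesion molecule of T and natural killer cells, had 8.42, 8.33, 9.48 and 8.30 on the CS arrays and 8.59, 8.82, 7.67 and 7.11 on the RPS arrays at its brighter probe (A_72_P178131). CS replicate 3 was far above the other CS arrays, which were close together, and RPS replicates 1 and 2 lay above those 3. The difference of -0.59 (SE 0.45) was -0.31 without CS replicate 3 and -0.27 without RPS replicate 4. CD5, which dampens receptor signalling, had 11.55, 11.30, 12.67 and 11.76 with CS and 11.27, 12.30, 12.01 and 11.06 with RPS. CD5 did not set RPS replicate 4 far apart, since RPS replicate 1 and CS replicate 2 were nearly as low, and its difference of -0.16 (SE 0.39) turned above 0 when either CS replicate 3 (0.13) or RPS replicate 4 (0.04) was dropped.

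**Figure D2:**
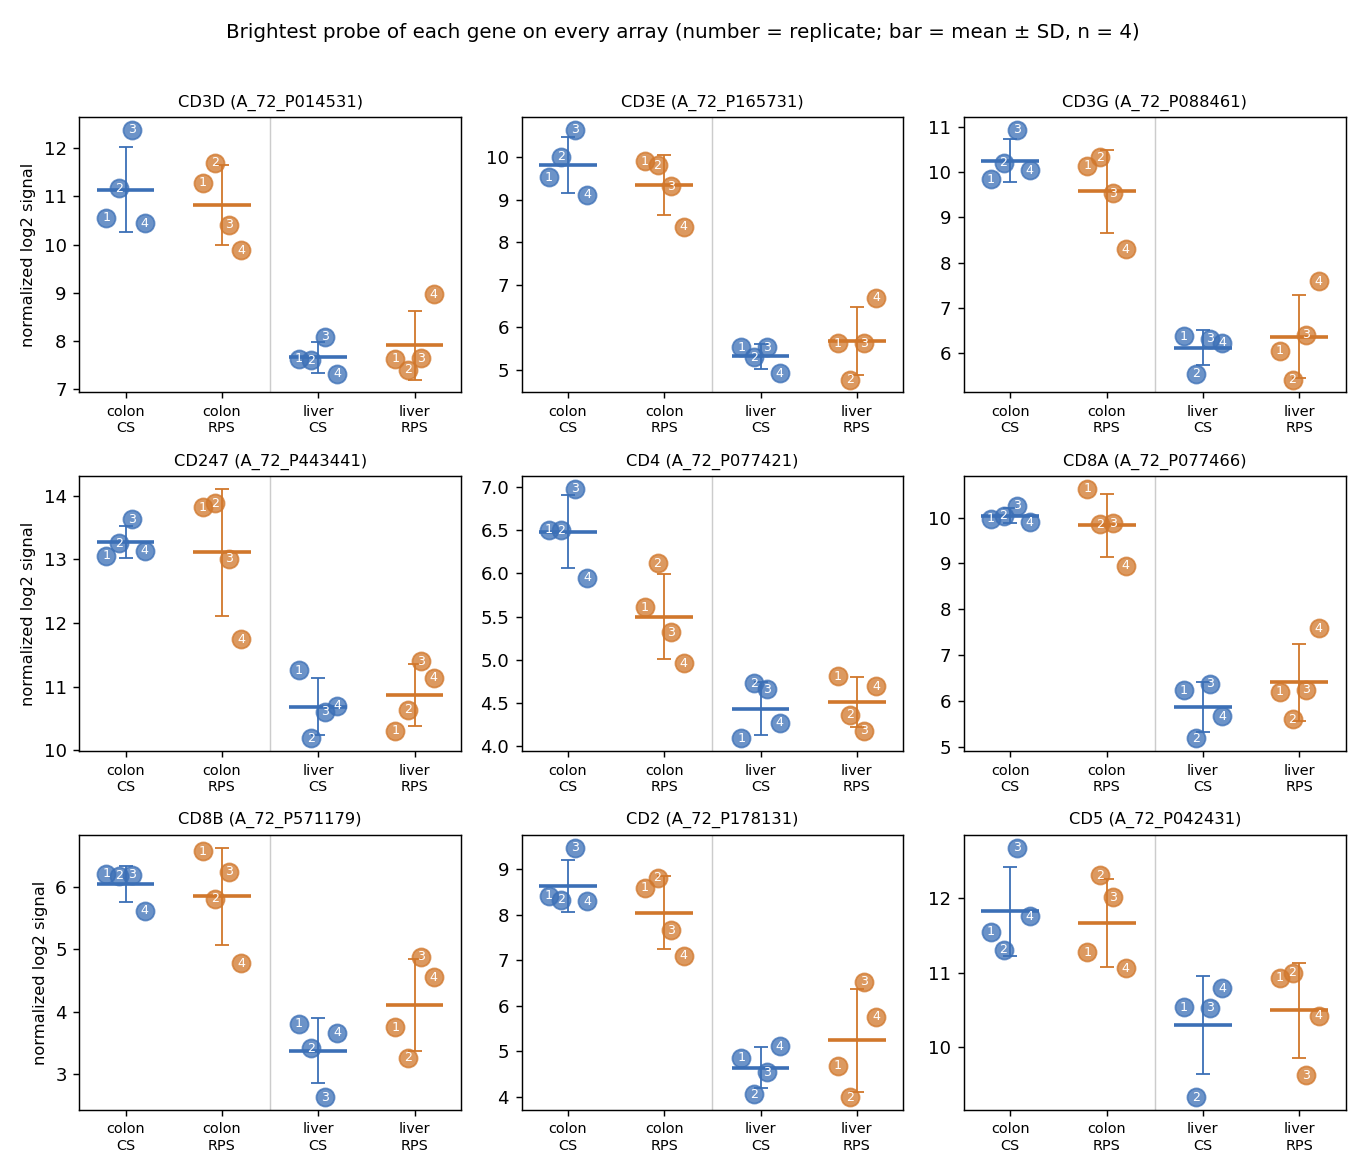
Normalized log2 signal on every array (points, numbered by replicate) of the brightest probe of each of the 9 genes, by tissue and diet, with the mean and SD of the 4 arrays of a group (bars). Diet groups overlapped in every panel. Signals were normalized within each tissue, so levels in colon and liver are not compared here.

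The member genes did not split the colonic arrays in the same way. Taken as deviations from the diet means over the 8 colonic arrays and at the brightest probe of each gene, CD247 and CD3G correlated with r = 0.97, CD3D and CD2 with r = 0.95, and CD8A and CD8B with r = 0.92. CD8B and CD3D correlated with r = 0.51 and CD8B and CD5 with r = 0.25. These 8 arrays share the low RPS replicate 4, and the correlations are given as a description only. Of the 4 CD8 probes 3 were highest on RPS replicate 1, as was the cytotoxic granule gene GZMB, which had 13.70, 13.45, 10.63 and 12.61 with CS and 14.60, 10.98, 13.01 and 11.29 with RPS. GZMB was dimmest on the same CS replicate 3 and RPS replicate 2 that were bright for MS4A1, whereas CD3D was brightest there. Other cytotoxic and natural killer cell genes were split. GZMA, KLRK1 and XCL1 were dimmest on these arrays too, whereas GZMK, GZMM and NCR3 were brightest on them.

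The second comparison asked the same of the liver. Here 13 of the 18 probes had a higher mean with RPS and 5 a lower one, where 49% of all probes were higher, and the median log2 difference was 0.22 over the 18 probes. Past both thresholds were 0 of the 18, where 1.8% of all probes passed as higher and 1.76% as lower. With 0 of the 18 did all RPS arrays lie above all CS arrays, as 2.24% of all probes did. Many liver signals were weak, and on all 8 liver arrays only 10 of the 18 probes lay well above background, of which 9 had a higher mean with RPS. RPS replicate 4 was the highest of the 8 liver arrays for 10 probes and RPS replicate 3 for 5. Without RPS replicate 4, 11 of the 18 means were higher with RPS and the median was 0.03. The count of higher means was 13 with scaling to the 75th percentile and 14 with normexp background correction, where the median was 0.10.

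CD3D (A_72_P014531) had liver signals of 7.64, 7.61, 8.09 and 7.32 on the CS arrays and of 7.63, 7.41, 7.64 and 8.97 on the RPS arrays. A single array, RPS replicate 4, was above the CS range, and without it the difference of 0.25 (SE 0.36) was -0.10. CD3E had 5.54, 5.30, 5.53 and 4.92 with CS and 5.63, 4.77, 5.63 and 6.70 with RPS, again with RPS replicate 4 on top, and the difference of 0.36 (SE 0.38) was 0.02 without it. For CD3G (A_72_P088461), which had 6.38, 5.54, 6.31 and 6.23 with CS and 6.05, 5.41, 6.40 and 7.58 with RPS, the difference of 0.25 (SE 0.45) was -0.16 without that array. The other CD3G probe was well above background on 0 of the 8 liver arrays, and no difference is given for it. The 2 dimmer CD3D probes, well above background on 2 and 5 liver arrays, differed by -0.07 (SE 0.43) and -0.33 (SE 0.51).

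CD247 (A_72_P443441) lay between 10.19 and 11.26 on the CS liver arrays and had 10.31, 10.64, 11.40 and 11.14 on the RPS arrays. CS replicate 1 and RPS replicates 3 and 4 were high and the groups overlapped almost completely. Its difference was 0.18 (SE 0.30), and the other CD247 probes had 0.07 and -0.03.

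The CD4 probe that stood out in the colon (A_72_P077421) had 4.09, 4.73, 4.66 and 4.27 with CS and 4.81, 4.36, 4.18 and 4.69 with RPS in the liver. These ranges were almost the same, with a difference of 0.08 (SE 0.20). The other CD4 probe was well above background on 1 of the 8 liver arrays, and no difference is given for it.

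CD8A (A_72_P077466) had 6.23, 5.18, 6.37 and 5.67 on the CS arrays and 6.21, 5.60, 6.25 and 7.59 on the RPS arrays. Apart from the high RPS replicate 4 the diets overlapped, and the difference of 0.55 (SE 0.46) was 0.15 without it. The dimmer CD8A probe (A_72_P685866, well above background on 4 arrays) went the other way, by -0.55 (SE 0.40). CD8B (A_72_P571179, 6 arrays) had 3.81, 3.42, 2.63 and 3.66 with CS and 3.75, 3.26, 4.88 and 4.55 with RPS. RPS replicates 3 and 4 were above every CS array, and the difference was 0.73 (SE 0.41). The second CD8B probe (A_72_P088456) was well above background on 0 CS arrays and 2 RPS arrays, and no difference is given for it.

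CD2 (A_72_P178131) had 4.85, 4.05, 4.54 and 5.11 with CS and 4.69, 3.99, 6.53 and 5.76 with RPS in the liver. As for CD8B, RPS replicates 3 and 4 were above all CS arrays, while RPS replicate 2 was here the lowest array, with a difference of 0.60 (SE 0.55). The dimmer CD2 probe differed by 0.57 (SE 0.53) and was well above background on 5 arrays. CD5 had 10.54, 9.33, 10.53 and 10.79 on the CS arrays and 10.93, 9.62 and 10.42 on RPS replicates 1, 3 and 4, with RPS replicate 2 slightly above all of these. Its high arrays were RPS replicates 1 and 2, not 3 and 4, and its difference was 0.20 (SE 0.41).

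Correlations among the member genes were less even in the liver than in the colon. Over the 8 liver arrays, CD3G and CD8A correlated with r = 0.95 and CD3D and CD3E with r = 0.91, whereas CD247 and CD3E had r = 0.35, CD5 and CD2 r = -0.36 and CD4 and CD247 r = -0.75.

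**Figure D3:**
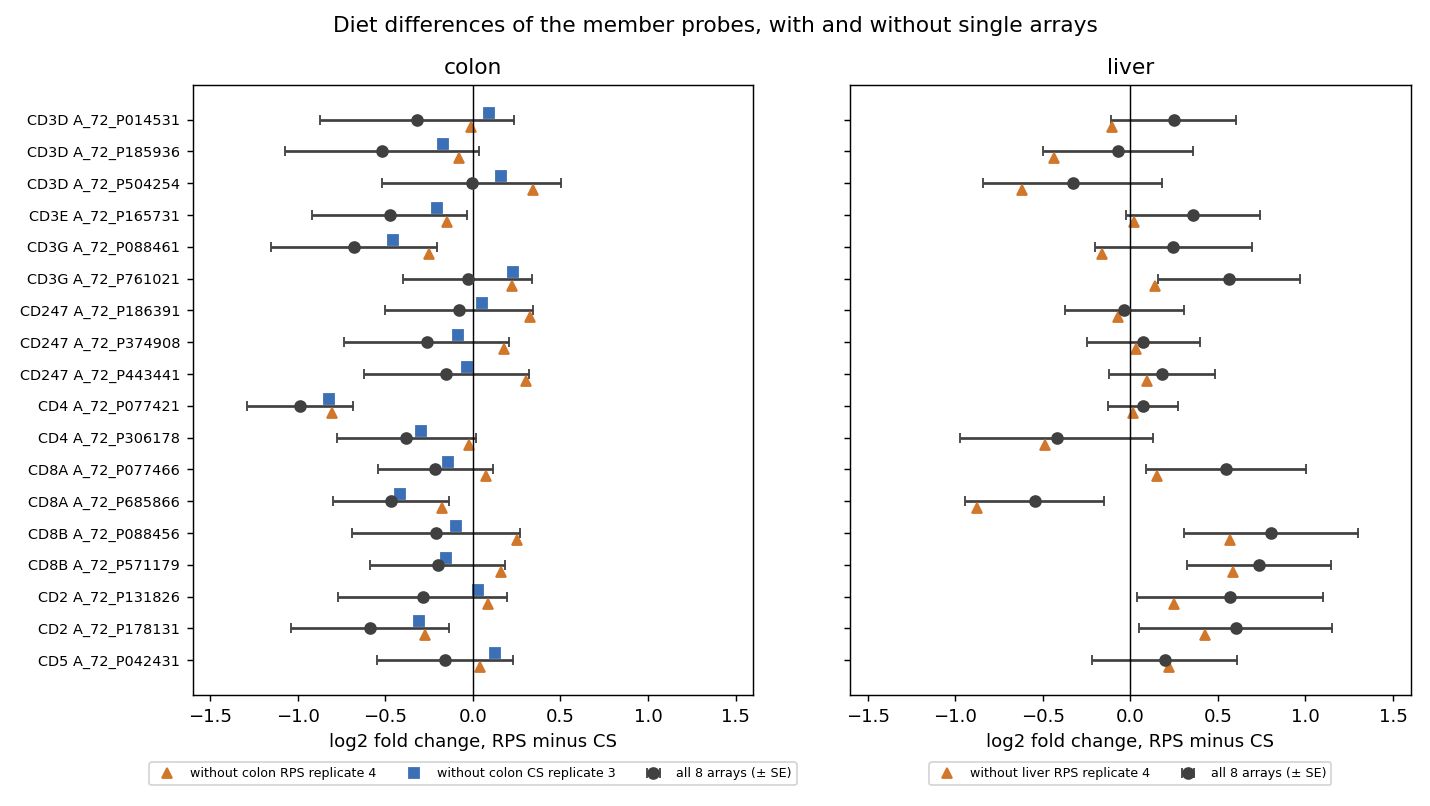
Log2 difference between the diets (RPS minus CS, horizontal axis) of each of the 18 probes in colon and liver, with all 8 arrays (circles, bars are SE) and without single arrays (triangles and squares). Most bars crossed 0, and without replicate 4 of the RPS group the colonic values moved up and most hepatic values moved down, including those of probes that were not well above background.

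Set side by side, the diet differences in the 2 tissues had opposite signs for 13 of the 18 probes, lower in colon and higher in liver, as they had for 22.1% of all probes. That count takes in probes with little or no liver signal. Of the 15 probes that were well above background on at least 1 liver array of each diet, 11 had opposite signs, and 4, of CD3D (A_72_P185936 and A_72_P504254), CD247 (A_72_P186391) and CD8A (A_72_P685866), were lower with RPS in both tissues. In a fit of all 16 arrays the colonic minus the hepatic diet difference was below 0 for 15 of the 18 probes and ranged from -1.19 at CD2 (A_72_P178131, SE 0.74) to 0.33 at CD3D (A_72_P504254, SE 0.76). The scaling alternatives gave 16 (75th percentile) and 17 (normexp, with a median of -0.23). CD4 (A_72_P077421) at -1.07 (SE 0.38) was the 1 probe past both thresholds, where 1.72% of all probes passed in that direction. The genes were chosen for such opposite directions, so this too is a description and not a test. With normexp the CD4 value was -0.45, under the 1.5-fold threshold. Without RPS replicate 4 of the liver 15 of the 18 were still below 0, but the median over the 18 probes went from -0.64 to -0.33. Without RPS replicate 4 of the colon 12 of the 18 were below 0 (median -0.35), and without RPS replicate 4 of both tissues 9 were (median -0.03). Leaving out CS replicate 3 and RPS replicate 4 of the colon also left 9 below 0. Without RPS replicate 2 of the colon all 18 were below 0 (median -0.77), and 14 were without CS replicate 3 of the colon (median -0.32). The opposite directions were thus a matter of means that mostly lay within the spread of 4 arrays. Of single arrays left out, colon RPS replicate 4 gave the lowest count below 0 and colon RPS replicate 2 the highest. The labels do not say whether replicate 4 of both tissues came from 1 pig.

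The comparison of colon with liver had no part in the choice of the genes and was tested. All 18 probes were higher in the colonic mucosa (limma, Benjamini-Hochberg adjusted p under 0.05 over all probes), where 28.9% of all probes were higher and 24% lower. For 11 of the 18, every colonic array was above every liver array. The sizes depended on the background correction, with a median of 2.51 over the 18 probes that became 1.16 with normexp, where the values ran from 0.20 to 2.56. Signals for this comparison were brought to a common distribution over all 16 arrays, and each group had its own slide, so that slide and tissue cannot be told apart.

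The CD3 chains were among the genes that differed most. On colonic arrays CD3E lay between 8.16 and 10.48 and on liver arrays between 5.04 and 6.93, a difference of 3.65 (SE 0.30, adjusted p = 1.55e-07). CD3G (A_72_P088461) differed by 3.25 (SE 0.34, adjusted p = 1.57e-06), and its other probe, well above background on all colonic and on 0 liver arrays, was at least 6.03-fold brighter in the colon (adjusted p = 2.82e-08). CD3D differed by 2.84 at its brightest probe. Its other probes, A_72_P185936 and A_72_P504254, were well above background on 2 and 5 of the 8 liver arrays, and their differences of 2.76 and 3.06 rest on partly unmeasured liver signals. For all of these CD3 probes the colonic and liver arrays did not overlap.

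CD247 differed less, by 2.26 (SE 0.30, adjusted p = 1.82e-05) at its brightest probe and by 1.71 and 1.61 at the others. CD8A (A_72_P077466) differed by 3.38 (SE 0.29, adjusted p = 2.02e-07), about as much as the CD3 chains, and its dimmer probe, measured on 4 liver arrays, by 2.20. CD8B differed by 1.67 at A_72_P571179 (6 liver arrays). Its probe A_72_P088456 was well above background on 0 CS and 2 RPS liver arrays, and no size is given for it. CD2 differed by 3.36 (SE 0.37, adjusted p = 3.07e-06) at A_72_P131826 (5 liver arrays) and by 2.93 at A_72_P178131 (all 8). Sizes from fewer than 8 liver arrays rest on partly unmeasured liver signals.

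At the other end stood CD4 and CD5. CD4 (A_72_P077421) lay between 4.68 and 6.74 in the colon and between 4.36 and 5.07 in the liver, a difference of 0.99 (SE 0.19, adjusted p = 0.000472), and the ranges overlapped. Within the diets the CD4 difference was 1.53 on the CS arrays and 0.45 on the RPS arrays, where it did not pass the test (adjusted p = 0.241). In the RPS arrays alone 12 of the 18 probes passed the test, and all 18 did so in the CS arrays alone. The second CD4 probe was well above background on 1 liver array, and no size is given for it. CD5 differed by 1.08 (SE 0.30, adjusted p = 0.00715), with colonic arrays between 10.91 and 12.64 and liver arrays between 9.51 and 11.14.

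**Figure D4:**
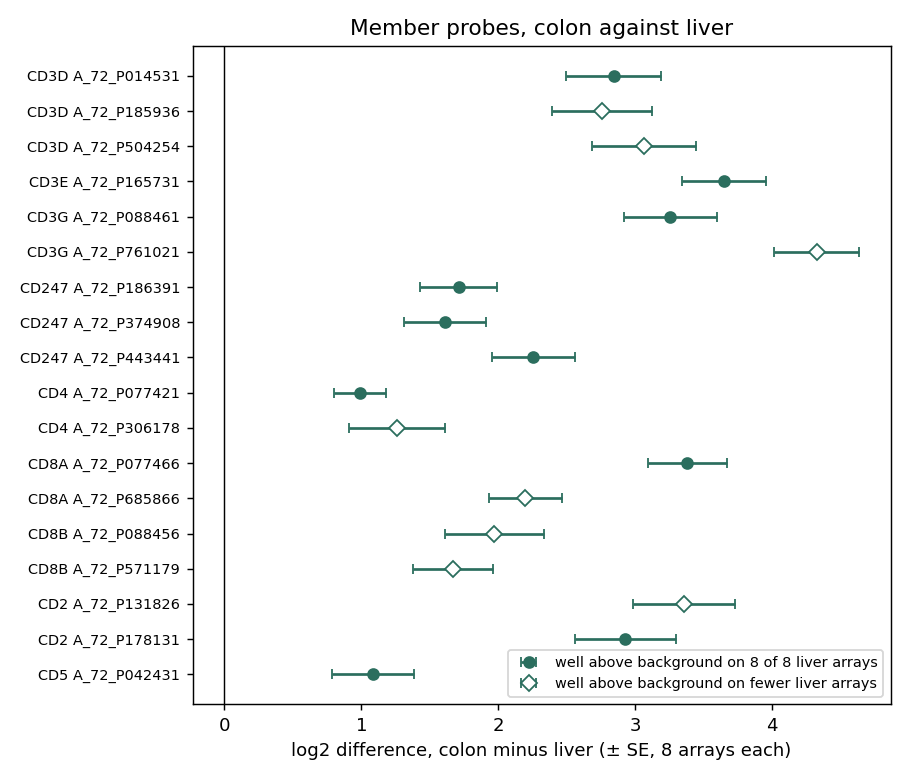
Log2 difference between colon and liver (colon minus liver, horizontal axis, bars are SE, 8 arrays per tissue) of each of the 18 probes, with open symbols where the probe was well above background on fewer than 8 liver arrays. All 18 values lay above 0, the lowest at CD4 (0.99), and the value furthest right, of CD3G A_72_P761021, is drawn from liver signals of which none was well above background.

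Several genes were read by probes on different stretches of the transcript, and 7 of the 9 genes had more than 1 probe. The 60-base probes below, as the array's design file gives them, show how probes of 1 gene can differ: the neighbouring pair of CD3D probes, which start at bases 200 and 252 of the transcript and share 8 bases (in capitals), and a CD4 and a CD247 probe whose colonic diet difference was nearer to 0 than that of another probe of the gene (-0.38 and -0.08). Gaps between probes were larger for CD3G in the colon and for CD8A in the liver, as given above. The CD3D pair differed between the diets in the colon by -0.01 (SE 0.51) at A_72_P504254 and by -0.52 (SE 0.55) at A_72_P185936, and the gap was not tested.
CD3D A_72_P504254: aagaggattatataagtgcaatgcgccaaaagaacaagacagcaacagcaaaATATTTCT
CD3D A_72_P185936: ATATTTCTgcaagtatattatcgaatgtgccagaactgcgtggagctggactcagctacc
CD4 A_72_P306178: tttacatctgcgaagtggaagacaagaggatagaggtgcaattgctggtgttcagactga
CD247 A_72_P186391: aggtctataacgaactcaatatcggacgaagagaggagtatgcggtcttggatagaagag

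Among the 18 probes that of CD5 was unusual in composition, with A at 21 of its last 30 bases. In the RefSeq annotation of the pig genome CD3E, CD3D and CD3G are direct neighbours, as are CD8B and CD8A. CD5 lies beside CD6, and CD4 beside LAG3.

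Genes that work with the receptor were read from lists by the same matching of names, with 1 probe per gene. T cell receptor chains were instead found by probe descriptions that name such a chain, with every such probe kept. This gave 6 probes, of which 4 were near background. Only a gamma chain probe (A_72_P184086) and a delta chain probe (A_72_P413738) had usable signal. The gamma chain probe had 11.74, 11.77, 11.28 and 11.38 on the colonic CS arrays and 12.01, 10.58, 11.77 and 11.09 on the RPS arrays. It was lowest on RPS replicate 2, not on RPS replicate 4, and so did not follow the CD3 chains. In the test of colon against liver the gamma chain was higher by 2.37 (SE 0.29, adjusted p = 9.12e-06) and the delta chain by 2.94 (SE 0.30, adjusted p = 1.07e-06). With diet 0 of the 6 passed an unadjusted p under 0.05 in limma in either tissue, where 5.42% of all probes passed in colon and 7.59% in liver, so that 0 in a list this short is near the share of all probes, as it is for the short lists that follow.

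Of 26 genes of receptor signalling 10 were measured. In colon against liver 8 of the 10 were higher and 0 lower (all probes 28.9% and 24%), among them the kinase LCK (3.03, adjusted p = 1.98e-05) and the adaptor SIT1 (3.41, adjusted p = 3.85e-05). With diet 0 of the 10 reached an unadjusted p under 0.05 in limma in either tissue (all probes 5.42% and 7.59%), with 5 lower and a median of -0.22 in the colon and 7 higher and a median of 0.05 in the liver. LCK, which phosphorylates the CD3 chains, had 9.47, 9.68, 11.52 and 9.65 with CS and 9.74, 11.03, 8.96 and 8.36 with RPS in the colon. Like CD3D it was highest on CS replicate 3 and RPS replicate 2 and lowest on RPS replicate 4.

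Of 22 costimulatory and surface genes 12 were measured, and 11 of these had a lower mean with RPS in the colon (median -0.42), with 0 under an unadjusted p of 0.05 in limma. In the liver 8 of the 12 were higher, of which IL7R, the receptor chain for interleukin 7, passed both thresholds (0.73, SE 0.30), as 1.8% of all probes did in that direction. Its probe was well above background on only 2 CS and 3 RPS arrays of the liver, and the filter on background left it out. It lost the call with normexp (0.10), with the t-test of the methods (0.73, SE 0.33) and without any 1 of 6 arrays. IL7R was lower by mean in the colon (-0.63, SE 0.39), and the difference between the tissues (-1.38, SE 0.52) was past both thresholds as well, with the same limit, but not with normexp (-0.47). Other listed genes past both thresholds for that difference were SATB1 (-0.79), C1QA (-0.76), C1QB (-1.15), C1QC (-1.17) and the epithelial gene CA1 (1.27). All probes passed as lower in 1.72%. With normexp C1QB and C1QC alone kept the call. Between tissues 10 of the 12 were higher in colon, where 28.9% of all probes were, among them ICOS by 3.94 (adjusted p = 1.05e-05), and IL2RA, well above background on 3 of the 8 colonic arrays, was lower (-4.48, adjusted p = 1.18e-09). Of 12 transcription factors of T cells 9 were measured. With diet 0 were under an unadjusted p of 0.05 in the colon (8 of 9 lower, median -0.17), and SATB1 passed both thresholds in the liver (0.69, SE 0.20, but not with normexp, at 0.50, or without CS replicate 3, at 0.56; 7 of 9 higher, median 0.15). Between tissues 5 were higher in colon, and TBX21 was lower (-0.36, adjusted p = 0.046).

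Of 22 cytotoxic and natural killer cell genes 15 were measured, and 13 were higher and 1, NCR1 (well above background on 3 colonic arrays), lower in colon than in liver, against 28.9% and 24% of all probes. GZMA differed most, by 5.21 (adjusted p = 3.5e-06). By diet 0 of the 15 passed both thresholds in limma in either tissue. TYROBP alone had an unadjusted p under 0.05 in the colon and 0 genes had in the liver, and the medians were -0.25 in colon (11 lower) and 0.14 in liver (9 higher). The summed signal of this list was 42739.5, 50190.2, 27458.5 and 37502.1 on the colonic CS arrays and 70014.8, 22208.5, 40299.4 and 18639.2 on the RPS arrays. It was thus highest on RPS replicate 1 and lowest on RPS replicates 2 and 4. Bright probes weigh most in such sums (here that of CCL5), which compare arrays and not genes. The summed signal of the 9 receptor and coreceptor genes, with CD247 the brightest probe, was 16185.2, 18305.9, 30181.8 and 16809.1 with CS and 23597.5, 27117.4, 16360.0 and 7840.5 with RPS, so that the 2 lists shared the low RPS replicate 4 but not the high CS replicate 3 and RPS replicate 2.

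Genes of other cell types moved with the same arrays, and their part in the T cell values was not tested. Of 24 B and plasma cell genes 7 were measured, with a summed signal (brightest probe CD40) of 45472.8 on CS replicate 3 and 44472.8 on RPS replicate 2 against 8560.7 to 15754 on the other 6 colonic arrays. With diet 0 of the 7 had an unadjusted p under 0.05 in limma in either tissue (all probes 5.42% and 7.59%), the medians were -0.49 in colon and -0.09 in liver, and 6 of the 7 were higher in colon than in liver. Of 8 genes of lymphoid tissue 5 were measured, with 53200.0 and 55462.4 on those same arrays, where LTB was the brightest probe, against 4869.8 to 12684.1 on the others. Again 0 had an unadjusted p under 0.05 with diet, the medians were -0.76 in colon and 0.18 in liver, and 3 were higher and 2 lower in colon than in liver, in so short a list not far from all probes (28.9% and 24%). Epithelial genes, of which 11 of 18 were measured, summed to 284068 and 440966 on CS replicate 3 and RPS replicate 2 against 811114 to 1125550 on the others. By diet 0 of the 11 passed in the colon (median 0.24). In the liver (median -0.07) CA1 passed as lower (-0.80, SE 0.32), as 1.76% of all probes did. CA1 did not pass with normexp (-0.24), with the t-test of the methods (-0.80, SE 0.35) or without any 1 of 6 arrays.

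Of 19 macrophage and dendritic cell genes 12 were measured. C1QA, C1QB and C1QC encode the chains of C1q, a part of the first complement component. These C1Q genes passed both thresholds as lower with RPS in the colon (-0.88, -1.27 and -1.30), as 1.32% of all probes did. In the liver 0 of the 12 did so (all probes 1.76%), and 1 had an unadjusted p under 0.05 in limma. Without colon RPS replicate 4 the C1Q genes were still past both (-0.60, -0.92 and -0.96), and C1QA was not without colon CS replicate 2 (-0.78). C1QB had 14.11, 14.09, 14.01 and 14.13 on the colonic CS arrays and 13.25, 13.21, 13.02 and 11.79 on the RPS arrays. RPS replicate 4 was the lowest here too, but all RPS arrays lay below all CS arrays, which was not so for any of the 18 T cell probes. The medians of this list were -0.29 in colon and -0.10 in liver, and 3 of its genes were higher and 6 lower in colon than in liver, where the 3 are near the 28.9% of all probes and the 6 above the 24%. The summed signal of this list was highest in the colon on RPS replicate 4 (196617), where LYZ made up most of it, whereas the mean log2 signal of its 12 genes, each set against its colonic mean, was lowest there (-0.61). Hepatocyte genes, 14 of 18 measured and with APOA2 the brightest probe by mean in the colon, had 0 past both thresholds in limma in either tissue and 1 under an unadjusted p of 0.05 in each, with medians of 0.02 in colon and -0.02 in liver, and their colonic sums lay between 1145.7 and 2535.8, the highest on RPS replicate 4.

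The genes whose colonic pattern was most like the mean of the 9 member genes, after taking away the diet means, were NFKBIA and PTK2B (both r = 0.99), LPIN2, ITGAV, IKBKB, MYLIP, NFKBIE and LATS2 (r = 0.97 each). They were the closest of 10309 probes over 8 arrays. Within the lists the closest in the colon were CD86 (r = 0.95), GZMM (0.92) and FOXP3 (0.90), whereas MS4A1 had 0.54 and the epithelial KRT18 -0.85. In the liver, where 8 member genes could be used against 10010 probes, the closest were FCHO1 (r = 0.99), CDH5 and ITM2B (0.98), ACOT9 (0.97), and MBD2, AK8, CEP290 and MST4 (0.96 each). None of these was also among the 8 closest in the colon. Among the listed genes GZMA (0.95) and SERPINA1 (0.95, at A_72_P795910, not the probe used for its list) were closest in the liver.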

How the data were processed

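The authors hybridised RNA of 16 tissue samples to 1-colour Agilent porcine arrays and deposited scanner files of Agilent Feature Extraction 10.7, whose intensity values are, per the file headers, background-subtracted spot signals, with flags for outliers and for signal well above background. The authors also deposited log2 values, quantile normalized in GeneSpring, used as an alternative. Control spots were left out, outlier spots set to missing, log2 signals quantile normalized within each tissue (8 arrays, or all 16 for the tissue and between-tissue fits) and averaged per probe. Differences were fitted with limma 3.58.1 (lmFit, eBayes) in R 4.3.3 with the package data.table, version 1.17.8, and figures drawn with matplotlib 3.10.9. A probe passed in the diet comparisons with an unadjusted p under 0.05 and a change above 1.5-fold, and between tissues with a Benjamini-Hochberg adjusted p under 0.05 over 43603 probes. The number of arrays limits the precision.

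All probes of the 10 genes are reported. Other lists (receptor signalling, costimulation, transcription factors, cytotoxic and natural killer cells, B and plasma cells, macrophages and dendritic cells, lymphoid tissue, epithelium, hepatocytes) used the brightest probe per gene. For receptor chains every probe whose description named such a chain was used. Genes were named by p among those past both thresholds or, for a pattern across arrays, after their values were seen. Members and lists were chosen with earlier results of these data known. A lower bound of a ratio sets the mean of the bright group against, per array, the lowest signal well above background or the probe's own, whichever is higher. The fits were tested on simulated data. Alternatives were scaling to the 75th percentile, normexp correction (offset 50.0), the deposited log2 values, outlier spots kept, quantile normalization over 16 arrays, the test of the methods, a replicate block, a filter on background, 1 diet only for the tissue comparison, and arrays left out.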

Additional observations from a re-analysis of the deposited data

Results flagged for a closer look

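In 6 of 72 groups of 4 arrays (8.33%; chance gives about 1 in 20) the outermost array of a member probe lay far from the other 3, by the gap to its neighbour as a share of the whole range of the group, set against Dixon's critical value for groups of 4. Colon CS replicate 3 was the high array for 3 probes, CD3D A_72_P185936 (0.86 of the range), CD2 A_72_P131826 (0.936) and CD2 A_72_P178131 (0.896), and it was also among the brightest arrays for B cell genes. Colon CS replicate 4 was the low array for CD8B A_72_P571179 (0.944). In the liver, RPS replicate 4 was the high array for CD3D A_72_P014531 (0.851), and CS replicate 3 the low array for CD8B A_72_P088456 (0.837), where the probe was not well above background. Colon RPS replicate 4, the lowest array for all 18 probes, did not pass this value in its group of 4 at any probe. The causes were not tested.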

How the results depend on the processing

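All 18 probes kept their higher level in colon than in liver under each alternative, and their call too, except that 6, CD4 (A_72_P077421) among them, lost it with the RPS arrays alone. Their median of 2.51 fell to 1.16 with normexp. The number of probes called between tissues was 23084, 22003 to 22810 without single arrays, 17630 with the CS and 16391 with the RPS arrays alone, and 26513 with scaling to the 75th percentile, where more were lower in colon (14004) than higher (12509), against 10480 and 12604. The number of probes past both diet thresholds moved more. In the colon it was 1283 (55.2% higher with RPS), 1968 with scaling to the 75th percentile (1358 or 69% higher) and 180 with normexp (48.3% higher). It was 780 among probes well above background in a group and 1067 to 2635 without single arrays. Without CS replicate 3 it was 1436 (47.8% higher), and without CS replicate 3 and RPS replicate 2 it was 2385 (45.6% higher). In the liver it was 1554, 221 with normexp, 965 among probes well above background, and 1408 to 2029 without single arrays. For the difference between tissues it was 1638, 298 with normexp, 1507 to 2802 without single arrays, and 2602 without colon CS replicate 3 and RPS replicate 2. The highest counts in colon and between tissues came without colon RPS replicate 2.

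Member probes lower with RPS in the colon numbered 18, 8 to 18 without single arrays, and 3 without CS replicate 3 and RPS replicate 4. Their median was -0.28, and -0.54 to 0.06 without single arrays. Higher in the liver were 13, and 11 to 15 without single arrays, with a median of 0.22, and 0.03 to 0.35. With normexp the medians were -0.14 in the colon and 0.10 in the liver. A lower diet difference in colon than in liver was found for 15, and for 12 to 18 without single arrays, for 9 without colon CS replicate 3 and RPS replicate 4, and for 9 without RPS replicate 4 of both tissues. The arrays left out in pairs, and the member counts under every alternative, were chosen after seeing the data. The CD4 difference in colon (A_72_P077421) was -0.99, and -0.50 with normexp, which is under the 1.5-fold threshold. The cause was not tested.

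With the replicate number as a block, 1267 probes passed in the colon, 1522 in the liver and 23713 between tissues. For the difference between tissues 1834 passed (block correlation 0.0792). No member count changed. The block left the mean differences of the members as they were, so their counts of higher and lower means could not change. Same-numbered arrays of both tissues had deviations that correlated at 0.16 to 0.33 in the CS group and at -0.08 to 0.07 in the RPS group, so pairing is not established. In the liver, 8 of the 18 probes were not well above background on every array, which limits what their differences can show.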
